A study of Mus musculus with 12 samples.

Results

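This section describes 7 noncoding RNAs of a mouse carcinoma line: Malat1, Neat1 and Pvt1, long noncoding RNAs (lncRNAs) grouped here as nuclear lncRNAs, and Gas5, Snhg1, Snhg8 and Snhg12, host genes of small nucleolar RNAs (snoRNAs). They were chosen by symbol from the 55421 genes of the deposited count table, and all 7 passed the filter on low counts that left 18108 genes for testing. The cells were MOC2, a mouse oral squamous cell carcinoma line, in 2 derivatives labelled by their release of extracellular vesicles (EVs), the membrane particles that cells shed. The derivative MOC2-25 was labelled EV-proficient, and MOC2-27 was labelled EV-deficient, with release blocked genetically in a gene that the labels do not name. Each was grown in culture and given either DMSO, the solvent (titled as control), or paclitaxel, which stabilises microtubules, at 600 nM over 48 h, used by the study to bring the cells to senescence. The 4 groups were therefore EV-proficient DMSO, EV-proficient paclitaxel, EV-deficient DMSO and EV-deficient paclitaxel, with 3 libraries of polyadenylated RNA each. Each EV label rested on 1 derivative line, so the label and the line cannot be told apart.

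Before the results, the libraries need describing. Their totals lay between 23263472 counts (EV-proficient paclitaxel replicate 3) and 62955757 counts. The first principal component (54.1% of the variance of log2 CPM, counts per 1000000 of library) separated paclitaxel from DMSO. On the second (16.4%), however, EV-proficient DMSO lay with EV-deficient paclitaxel, and EV-deficient DMSO with EV-proficient paclitaxel. A row that the authors had added for a dngfr sequence crossed the EV label in the same way, at 8.99 ± 3.23 CPM on scaled library sizes (SD, n = 3) with DMSO and 3.24 ± 0.683 with paclitaxel in EV-proficient cells, and at 2.15 ± 0.349 with DMSO and 10.9 ± 1.42 with paclitaxel in EV-deficient cells. Every direction given below between EV labels, every paclitaxel response within 1 label and every difference between the responses of the 2 labels therefore rests on the EV label that each library carries. The paclitaxel effect averaged over both labels would be the same if the labels were exchanged within a treatment. Nothing in the labels says that replicates were separate cultures, so p-values measure the spread between these libraries, which may be technical. Of 10 squamous epithelial markers, 8 had a mean of at least 1 CPM, while Krt5 and Trp63 were near 0. Krt14 had group means from 80.0 to 681 CPM. Cd3e and Adgre1, defining markers of T cells and macrophages, were at or near 0 in all groups. The summed level of 6 immune markers was nonetheless 1.19 to 1.58 CPM with DMSO and 12.1 to 13.7 CPM with paclitaxel in EV-proficient cells and 13.1 to 13.6 CPM and 5.02 to 7.72 CPM in EV-deficient cells. Csf1r was the most abundant of them in each group, from 0.944 CPM in EV-proficient DMSO to 12.4 CPM in EV-deficient DMSO libraries. The part of these markers in the results was not tested.

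Long noncoding RNAs are transcribed and often spliced and polyadenylated like messenger RNAs but carry no long reading frame. Malat1 is retained in nuclear speckles, bodies rich in splicing factors, and Neat1 is the scaffold RNA around which paraspeckles assemble together with the RNA-binding proteins Nono and Sfpq. Pvt1 lies beside the oncogene Myc. The snoRNA host genes have a different purpose: their introns are trimmed into snoRNAs, which guide the methylation or pseudouridylation of ribosomal RNA, while the spliced exons form an RNA that is commonly degraded by nonsense-mediated decay (NMD) once ribosomes engage it. Many host genes, Gas5 among them, begin their transcripts with a C followed by a run of pyrimidines, the 5′ terminal oligopyrimidine (TOP) tract also found on ribosomal protein messages.

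The start sites of the 4 host genes are shown because the letters there are a known feature of snoRNA host genes. Each window below runs from 40 bases before to 20 bases after the start site in RefSeq (mouse build GRCm38.p6) on the strand of the gene. Capitals mark the letters TATA where they lay between 40 and 20 bases before the start, and a run of at least 5 C or T letters that begins with C within 20 bases of the start, both searched on the strand of the gene only.
Gas5, chr1:161035126-161035185, plus strand: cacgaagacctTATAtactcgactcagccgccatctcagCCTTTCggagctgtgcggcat
Snhg1, chr19:8723447-8723506, plus strand: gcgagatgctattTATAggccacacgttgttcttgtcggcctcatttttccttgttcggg
Snhg8, chr3:123508317-123508376, minus strand: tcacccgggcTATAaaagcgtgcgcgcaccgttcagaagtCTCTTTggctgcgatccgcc
Snhg12, chr4:132308638-132308697, plus strand: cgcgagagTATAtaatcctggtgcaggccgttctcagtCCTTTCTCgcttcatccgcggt

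All 4 host genes had TATA, beginning 29 (Gas5), 27 (Snhg1), 30 (Snhg8) and 32 (Snhg12) bases before the start, against 5.34% of the 32851 RefSeq promoter windows of mouse genes. The pyrimidine run was found in 3 of the 4, Snhg1 being the exception, and in 48.2% of all promoters. Gas5 has a second RefSeq start, farther upstream, whose window held neither, and the window of Malat1 held neither. The letters CACGTG, searched on both strands of the 300-base promoter, were in none of the windows of these genes and in 7.15% of all promoters. TGACGTCA, searched in the same way, was in the Gas5 promoter shown above and in 1.79% of all promoters. Neat1 and Pvt1 were not among the promoter entries used here. A match of letters describes the sequence and is not evidence of binding.

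In the GENCODE M21 annotation (GRCm38), Malat1 (ENSMUSG00000092341) lies at chr19:5795690-5802672 on the minus strand and Neat1 (ENSMUSG00000092274) close by at chr19:5824708-5845478 on the same strand. Pvt1 (ENSMUSG00000097039) spans chr15:62037986-62378096 on the plus strand, with 6996 bases of exon in 340111. Gas5 (ENSMUSG00000053332) is at chr1:161034422-161038539 (plus), Snhg1 (ENSMUSG00000108414) at chr19:8723475-8726443 (plus), Snhg8 (ENSMUSG00000104960) at chr3:123507552-123508404 (minus) and Snhg12 (ENSMUSG00000086290) at chr4:132308623-132311024 (plus). The annotation places 10 snoRNA entries within Gas5, 8 within Snhg1, 5 within Snhg12 and 1 within Snhg8. All of them fall inside an exon of some annotated transcript of the host, and exons cover the whole span of Snhg1, Snhg8 and Snhg12 and 3760 of the 4118 bases of Gas5. Spliced and unspliced host RNA cannot be told apart in these counts. Nor can the annotated transcripts of Neat1 or of Malat1, 4 for each gene.

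One snoRNA from each of 2 hosts is printed as an example of the RNAs that these genes host. In each, from the GENCODE M21 transcripts, capitals mark the C box (TGATGA) and the D box (CTGA) that define the box C/D class.
Snord47, in Gas5, chr1:161038082-161038158, plus strand: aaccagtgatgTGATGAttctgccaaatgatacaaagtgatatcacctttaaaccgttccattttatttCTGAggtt
Snord99, in Snhg12, chr4:132310691-132310764, plus strand: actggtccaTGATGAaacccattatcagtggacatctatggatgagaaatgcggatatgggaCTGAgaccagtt

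These snoRNAs and the other hosted entries had 0 counts in all 12 libraries. That zero says nothing of their levels. Of the 340 annotated genes that lie wholly inside exons of another, well-counted gene on the same strand, 1 had any count. Of 200 lying inside exons of such a gene on the opposite strand only, 1 had any, against 60% of the 43430 genes that share no exon base. Of snoRNA genes alone, 1 of 114 inside exons on the same strand had any count, against 26.8% of the 1277 that share no exon base. Reads on bases shared by 2 genes were thus hardly counted for the gene inside, on either strand. Whether they were counted for the gene around it was not tested. The share of exon bases that other genes also hold was 17.8% for Gas5, 20.9% for Snhg1, 15.2% for Snhg8 and 19.6% for Snhg12. It was 4.87% for Pvt1, 1.85% for Neat1 and 1.23% for Malat1 on the same strand, with a further 6.49% of Malat1 and 1.56% of Pvt1 on the opposite strand. Any loss of reads there would fall on the same bases in every library. Libraries selected for poly(A) are also not designed to capture mature snoRNAs, which lack a poly(A) tail. The same limit holds for any RNA of Neat1 or Malat1 without such a tail.

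Not all 7 genes were abundant here. Malat1, at a mean of 330 CPM over the 12 libraries, was above 97.5% of tested genes, Gas5 (248 CPM) above 95.9%, Neat1 (166 CPM) above 93.0% and Snhg1 (144 CPM) above 91.5%. Snhg12 (26.2 CPM), Snhg8 (20.3 CPM) and Pvt1 (14.0 CPM) lay near the middle of all genes, at the 63.0th, 58.5th and 53.3rd percentiles, although among the 1588 tested noncoding genes they ranked 33rd, 35th and 42nd. The fewest counts for any of the 7 in a library were 401, for Pvt1. Together they took 0.0627% of counts with DMSO and 0.117% with paclitaxel in EV-proficient cells, and 0.0660% with DMSO and 0.145% with paclitaxel in EV-deficient cells.

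Per kilobase of annotated exon, which allows for length, the order changed. That length takes in every annotated transcript, and which of them were present was not tested. The mean length-scaled level was 65.9 CPM per kb for Gas5, 48.6 for Snhg1, 47.2 for Malat1, 23.9 for Snhg8, 10.9 for Snhg12, 8.0 for Neat1 and 2.00 for Pvt1. Snhg1 and Malat1, neighbours in that order, differed by less than their spread between libraries. Under DMSO Gas5 and Snhg1 were close, at 47.2 ± 1.83 and 45.8 ± 1.19 CPM per kb in EV-proficient libraries (SD, n = 3). In EV-deficient DMSO libraries Snhg1 was above Gas5, at 45.3 ± 1.67 against 43.7 ± 2.41. Malat1 stood above Gas5 and Snhg1 in EV-deficient paclitaxel libraries only, at 81.0 ± 18.6 CPM per kb (SD, n = 3). There Gas5 was at 71.7 ± 11.3 and Snhg1 at 45.1 ± 5.12, and the ranges of Malat1 and Gas5 overlapped. With the longest transcript in place of all exons, Gas5 stood at 96.9, Snhg12 at 17 and Pvt1 at 4.22 CPM per kb, and the order of the 7 genes was unchanged. For Neat1 (20771 bases) and Malat1 (6983 bases) the 2 lengths were the same, so their values could not move.

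**Figure D1:**
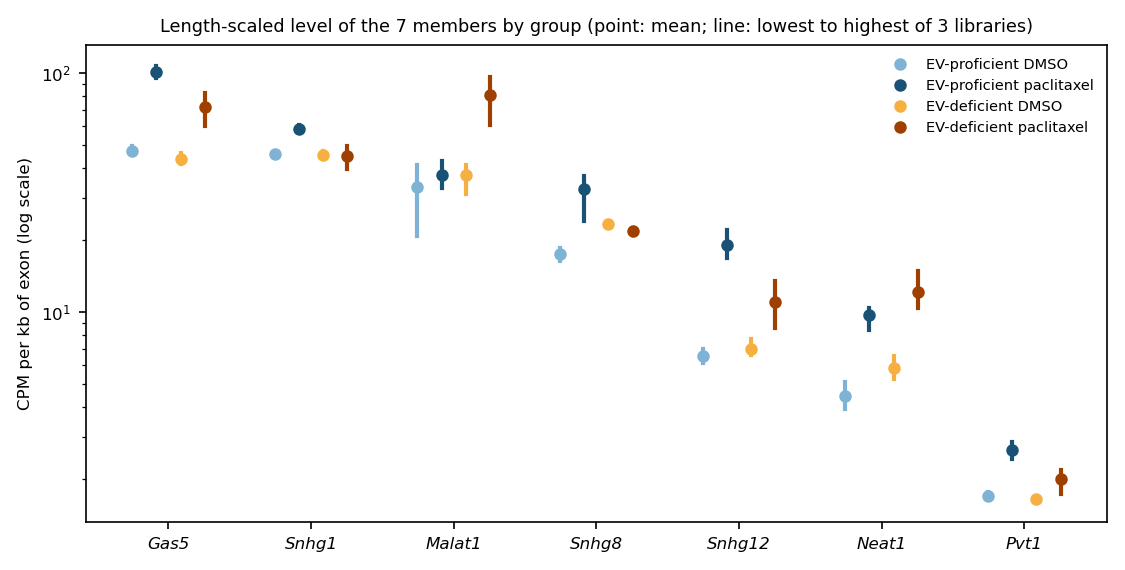
Length-scaled level (CPM per kb of annotated exon, log axis) of each gene, ordered by its mean over all libraries; points are group means and lines run from the lowest to the highest of 3 libraries. Gas5, Snhg1 and Malat1 lie highest and Pvt1 lowest, and the EV-deficient paclitaxel mean of Malat1 stands above the means of its other 3 groups.

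Paclitaxel raised all 7 genes when its effect was averaged over both EV labels, by log2 fold changes from 0.17 (Snhg1) to 1.09 (Neat1 and Snhg12). The value of Snhg1 was 0.11 without EV-deficient paclitaxel replicate 2 and 0.29 with upper-quartile scaling. By edgeR's quasi-likelihood test, 7 of 7 were called higher at an adjusted p under 0.05, where 68.4% of the 18108 tested genes were called and 37.1% were called higher. The median log2 fold change of the 7 was 0.65, beside 0.07 over all tested genes and 0.45 over the 1588 noncoding genes, of which 37.1% were higher and 10.3% lower. Within single EV labels the picture was less uniform: 6 rose in EV-proficient cells (58.2% of all genes called, 31.1% higher) and 5 in EV-deficient cells (62.9% called, 32.4% higher). None fell in either, where 27.1% and 30.5% of all genes were called lower. Mitochondrial genes moved with the drug too, from 0.653% ± 0.090 to 0.878% ± 0.031 of counts in EV-proficient and from 0.644% ± 0.076 to 1.27% ± 0.19 in EV-deficient libraries (SD, n = 3), and the summed epithelial markers went from 5881 to 6290 CPM down to 4302 to 4619 CPM and from 6224 to 6686 CPM down to 3690 to 3914 CPM. Not every epithelial marker followed that sum: Epcam was at a mean of 407 CPM with DMSO and 816 CPM with paclitaxel in EV-proficient and at 439 and 535 CPM in EV-deficient libraries, and Itga6 was at 615 and 706 CPM in EV-proficient libraries, where Krt14 was at 191 CPM with either. In EV-deficient libraries Krt14 went from 681 to 80.0 CPM and Krt6a from 318 to 2.48 CPM. In EV-proficient libraries Krt6a went from 42.0 to 15.5 CPM. The 4 fibroblast markers summed to 1.56 to 2.49 CPM with DMSO and 5.06 to 6.26 CPM with paclitaxel in EV-proficient cells, and to 2.5 to 3.16 CPM and 6.68 to 8.04 CPM in EV-deficient cells. The 3 endothelial markers summed to 2.31 to 2.49 CPM and 2.55 to 3.02 CPM in EV-proficient and to 1.69 to 2.32 CPM and 3.28 to 4.26 CPM in EV-deficient cells, also without overlap. In EV-proficient cells this rise was that of Pecam1 (0.383 to 1.19 CPM), while the means of Cdh5 and Kdr were lower with paclitaxel. The part of any of these in the results was not tested. In bulk RNA, moreover, a change in the RNA content per cell and a change in the gene cannot be separated.

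**Figure D2:**
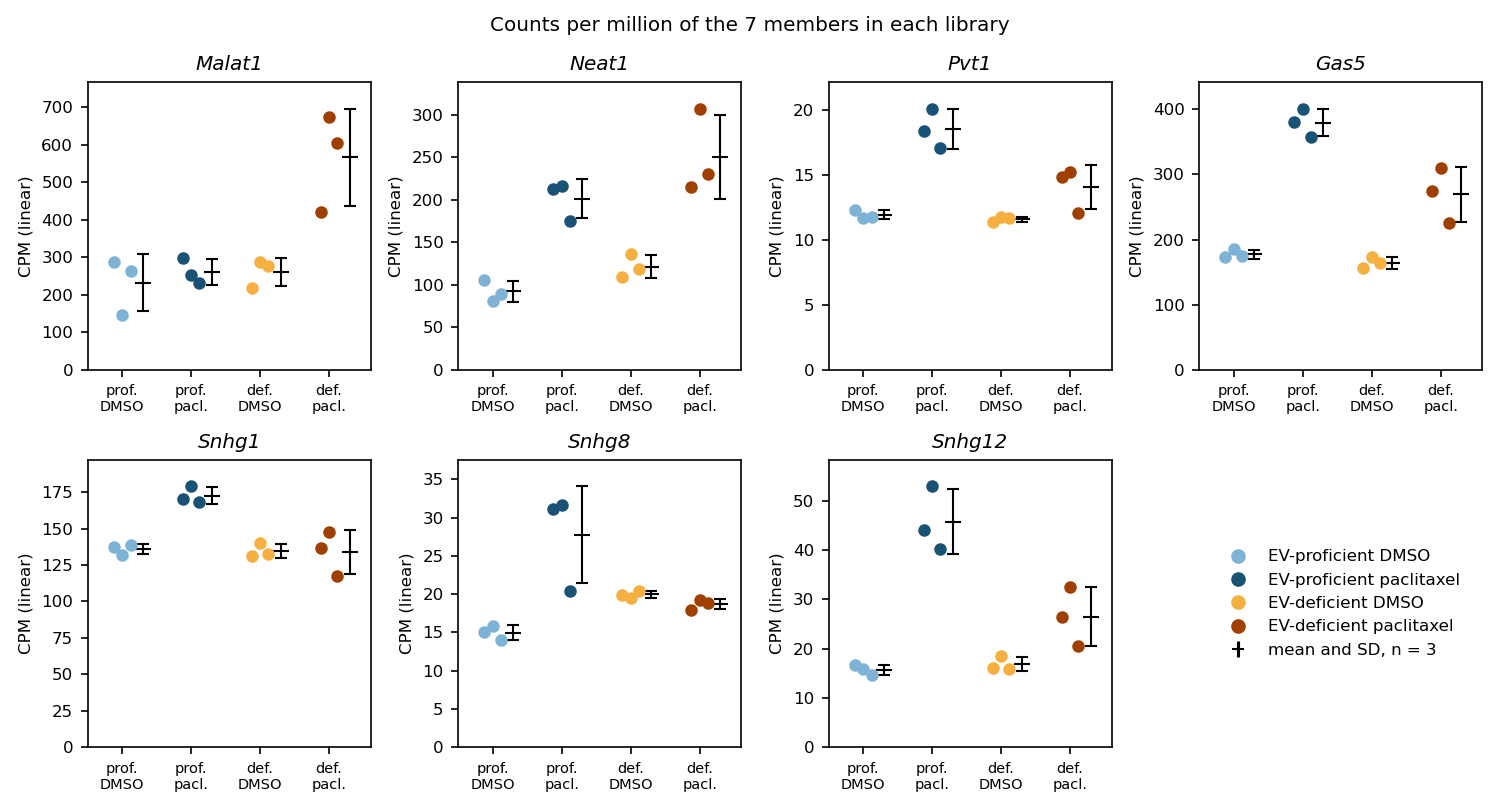
CPM (linear axes from 0) of the 7 genes in each of the 12 libraries, by group, with the mean and SD of 3 libraries beside the points. Malat1 stands out in EV-deficient paclitaxel libraries, whereas Gas5, Snhg12, Snhg1 and Pvt1 are highest in EV-proficient paclitaxel libraries.

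Neat1 showed the most even response. Its level was 106, 81.3 and 89.5 CPM in the EV-proficient DMSO libraries and 213, 216 and 175 CPM with paclitaxel. In EV-deficient cells it was 109, 136 and 118 CPM with DMSO and 215, 307 and 230 CPM with paclitaxel. Under either label, every paclitaxel library lay above every DMSO library. The rise was 2.19-fold in EV-proficient (1.13 ± 0.12 SE on the log2 scale, edgeR quasi-likelihood adjusted p 4.08e-08) and 2.07-fold in EV-deficient cells (1.05 ± 0.12 SE, adjusted p 7.32e-08). The difference between these responses was -0.08 ± 0.16 SE on the log2 scale (edgeR adjusted p 0.754), and its sign turned with upper-quartile scaling (0.05).

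Malat1 behaved differently. It stood at 287, 145 and 263 CPM in EV-proficient DMSO and at 298, 253 and 231 CPM in EV-proficient paclitaxel libraries, which overlapped. EV-deficient cells held 217, 288 and 276 CPM with DMSO and 421, 673 and 604 CPM with paclitaxel, so that each of these last 3 libraries was above the other 9. The log2 change with paclitaxel was 0.17 ± 0.18 SE in EV-proficient (edgeR adjusted p 0.437) and 1.12 ± 0.18 SE in EV-deficient cells (adjusted p 1.49e-05), a difference of 0.95 ± 0.26 SE (adjusted p 0.00489). EV-proficient DMSO replicate 2, at 145 CPM, set the sign of the first of these values, which was -0.08 without it. When low-count genes were kept in the fit, this value was 0.20 with an adjusted p of 0.0124 by the same edgeR test.

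Pvt1, the scarcest of the 7, was under DMSO at 12.3, 11.7 and 11.7 CPM in EV-proficient and 11.4, 11.7 and 11.7 CPM in EV-deficient libraries. Paclitaxel libraries held 18.4, 20.1 and 17 CPM in EV-proficient and 14.9, 15.2 and 12.1 CPM in EV-deficient cells. The groups were separate in both cases, though EV-deficient paclitaxel replicate 3 lay close to its controls. The rise was 0.64 ± 0.10 SE in EV-proficient (edgeR adjusted p 2.03e-05) and 0.28 ± 0.10 SE in EV-deficient cells (adjusted p 0.0251). The call in EV-deficient cells was lost without the low-count filter (0.24, adjusted p 0.106) and in 5 of the 12 fits that left out 1 library. Those 5 left out EV-deficient DMSO replicate 1, 2 or 3 or EV-deficient paclitaxel replicate 1 or 2, with values from 0.22 to 0.27. With upper-quartile scaling the value was 0.46 (edgeR adjusted p 0.00063).

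The gene that Pvt1 neighbours did not follow it: Myc was at 302 ± 17.5 CPM in EV-proficient DMSO and 287 ± 15.1 CPM in EV-proficient paclitaxel libraries (SD, n = 3; -0.08 ± 0.06 SE on the log2 scale, edgeR adjusted p 0.306). In EV-deficient cells it fell from 287 ± 12.2 to 255 ± 11.4 CPM (-0.17 ± 0.06 SE, adjusted p 0.0184), a change that upper-quartile scaling turned to 0.00894.

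Of the host genes, Snhg12 and Gas5 responded in both EV labels. Gas5, first found as a transcript that accumulates in growth-arrested cells, was at 173, 185 and 175 CPM in EV-proficient DMSO and 381, 401 and 358 CPM in EV-proficient paclitaxel libraries. With the EV-deficient label it was at 156, 174 and 163 CPM under DMSO and at 275, 309 and 225 CPM under paclitaxel. All 6 paclitaxel libraries lay above all 6 DMSO libraries, and the EV-proficient ones were highest. The rise was 2.14-fold in EV-proficient (1.1 ± 0.08 SE in log2, edgeR adjusted p 4.56e-10) and 1.64-fold in EV-deficient cells (0.71 ± 0.08 SE, adjusted p 1.86e-07). The difference between the responses was -0.38 ± 0.12 SE (edgeR adjusted p 0.0129), a call lost with upper-quartile scaling (-0.26, adjusted p 0.0876) and without EV-proficient paclitaxel replicate 2 (-0.30) or EV-deficient paclitaxel replicate 3 (-0.23).

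Snhg12 had the largest response of the 7 in EV-proficient cells, from 16.7, 15.8 and 14.7 CPM with DMSO to 44.1, 53.0 and 40.3 CPM with paclitaxel. In EV-deficient cells the DMSO libraries held 16.1, 18.6 and 15.9 CPM and the paclitaxel libraries 26.5, 32.4 and 20.5 CPM. Groups were separate under both labels. The fold change was 2.91 in EV-proficient (1.54 ± 0.13 SE in log2, edgeR adjusted p 1.85e-09) and 1.57 in EV-deficient cells (0.65 ± 0.13 SE, adjusted p 0.000156). The responses differed by -0.89 ± 0.18 SE (edgeR adjusted p 0.000424).

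Snhg8 and Snhg1 rose in EV-proficient cells and were not called in EV-deficient cells. Snhg8 was at 15.1, 15.9 and 14.0 CPM in EV-proficient DMSO and at 31.2, 31.7 and 20.4 CPM in EV-proficient paclitaxel libraries (0.90 ± 0.12 SE in log2, edgeR adjusted p 1.42e-06). In EV-deficient cells it was at 19.9, 19.5 and 20.4 CPM with DMSO and at 18.0, 19.2 and 18.9 CPM with paclitaxel. There the paclitaxel libraries were all slightly below the DMSO libraries, with a log2 change of -0.10 ± 0.12 SE (edgeR adjusted p 0.496). The low value in the EV-proficient paclitaxel group was that of replicate 3, the library with the fewest counts. Without that library the response was 1.03. The difference between the labels' responses, -1.0 ± 0.17 SE (edgeR adjusted p 6.05e-05), ranged from -1.14 to -0.85 over its 19 alternatives.

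Averaged over the labels, Snhg1 moved least of the 7. It was at 137, 132 and 139 CPM in EV-proficient DMSO and at 171, 179 and 168 CPM in EV-proficient paclitaxel libraries, which did not overlap (0.35 ± 0.07 SE in log2, edgeR adjusted p 0.000226). The EV-deficient libraries held 131, 140.1 and 132 CPM with DMSO and 136, 147 and 117 CPM with paclitaxel, which did overlap (-0.01 ± 0.07 SE, edgeR adjusted p 0.93). With upper-quartile scaling, which moved the median of all genes by 0.184 in this comparison, the EV-deficient change of Snhg1 was 0.18 with an adjusted p of 0.0354 by edgeR. The responses differed by -0.35 ± 0.10 SE (edgeR adjusted p 0.00638), a call that the same scaling did not make (-0.23, adjusted p 0.0748), and by -0.23 without EV-deficient paclitaxel replicate 3, where it was still called.

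**Figure D3:**
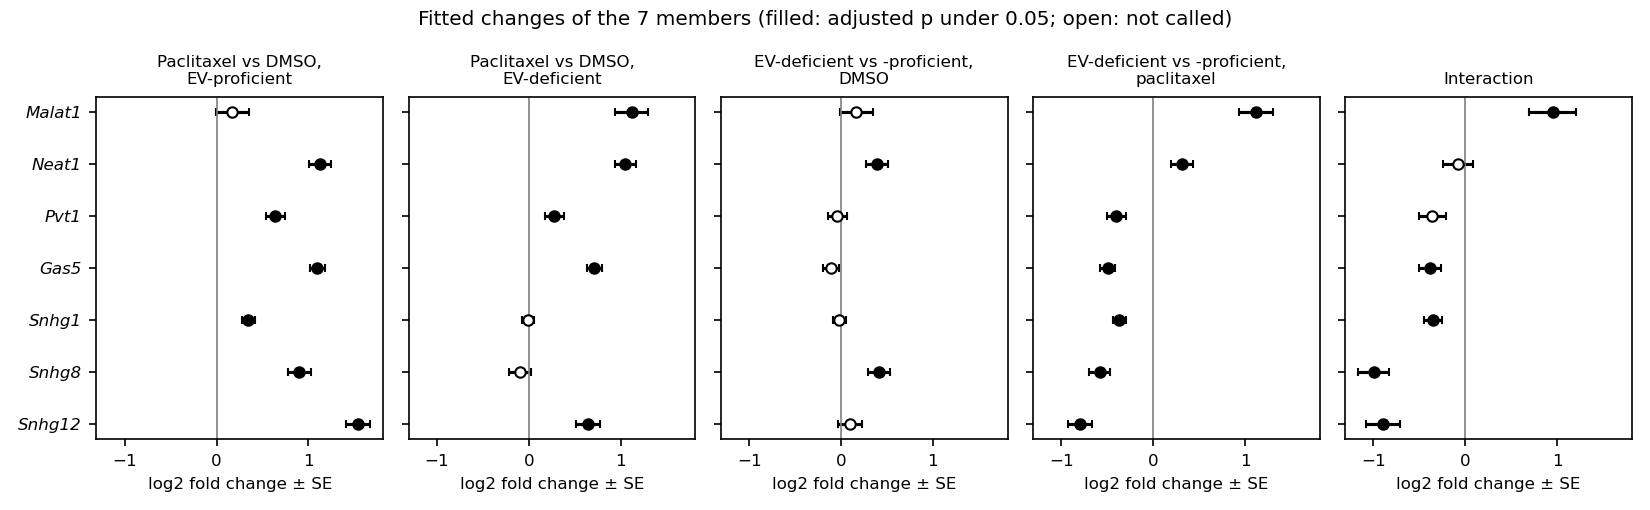
Fitted log2 fold changes with standard errors of the 7 genes in 5 comparisons, the last panel being the paclitaxel response in EV-deficient minus that in EV-proficient cells; filled points had an adjusted p under 0.05. The difference in response is above 0 for Malat1 and below 0 for the 4 host genes.

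Across the 7 genes, the test of the difference in paclitaxel response called Malat1 higher and the 4 host genes lower in EV-deficient cells, while Neat1 and Pvt1 (-0.36 ± 0.15 SE, edgeR adjusted p 0.0549; -0.22 without EV-deficient paclitaxel replicate 3) were not called. Of all tested genes, this comparison called 16.9% higher and 23.8% lower, 40.7% in all. The median difference of the 4 host genes was -0.64, beside -0.04 over all genes and 0.25 over the 1588 noncoding genes. Of the calls in this comparison 41.4% were higher, and 53.9% after upper-quartile scaling, under which 3 of the 7 genes were called (Malat1, Snhg8 and Snhg12).

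Between the EV labels, 2 of the 7 genes were called without the drug, a share near that of all genes. Under DMSO, where 23% of all genes were called and 12.4% called higher, Neat1 (0.39 ± 0.12 SE in log2, edgeR adjusted p 0.0185) and Snhg8 (0.41 ± 0.12 SE, adjusted p 0.0156) were higher in EV-deficient cells and the other 5 were not called. Both calls depended on single libraries. Neat1 was not called without EV-proficient DMSO replicate 2 (0.31) or 3 (0.37) or EV-deficient DMSO replicate 2 (0.31), nor by DESeq2 (0.37, adjusted p 0.0885). Snhg8 was not called without EV-proficient DMSO replicate 3 (0.37, edgeR adjusted p 0.0713). Fits of other kinds called 2 further genes in this comparison, Malat1 without the low-count filter (0.21) and Gas5 when only the DMSO groups were fitted (-0.14, edgeR adjusted p 0.0328).

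Under paclitaxel all 7 were called between the labels, with 37.8% of all genes called, 16% higher and 21.8% lower. The 4 host genes and Pvt1 were lower in EV-deficient cells: Snhg12 by a log2 fold change of -0.80 ± 0.13 SE (edgeR adjusted p 3.86e-05), Snhg8 by -0.58 ± 0.12 SE, Gas5 by -0.50 ± 0.08 SE, Pvt1 by -0.40 ± 0.10 SE and Snhg1 by -0.37 ± 0.07 SE. For each of these 5 genes the EV-deficient paclitaxel libraries all lay below the EV-proficient ones, as they did for 24.1% of tested genes. By contrast, Malat1 was higher in EV-deficient cells by 1.12 ± 0.18 SE (edgeR adjusted p 5.5e-05), 2.17-fold. Neat1 was higher by 0.31 ± 0.12 SE (edgeR adjusted p 0.0363) with overlapping groups, and it was not called without EV-proficient paclitaxel replicate 1 (0.35) or 3 (0.21), without EV-deficient paclitaxel replicate 2 (0.15), or by DESeq2 (0.34, adjusted p 0.0993). Of all calls between the labels under paclitaxel 42.4% were higher, and 58.2% after upper-quartile scaling.

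The gene starts of Gas5 and Snhg1 in GENCODE M21 each lie beside that of a protein-coding gene on the opposite strand. For Gas5 this start lies upstream of the RefSeq start whose window is printed above. Zbtb37, a zinc finger gene whose start is 427 bases from that of Gas5, changed by 0.22 ± 0.10 SE with paclitaxel in EV-proficient (edgeR adjusted p 0.0609) and by 0.32 ± 0.09 SE in EV-deficient cells (adjusted p 0.0052), less than Gas5 in both. Slc3a2, the heavy chain of amino acid transporters, starts 106 bases from Snhg1. It fell by 0.47 on the log2 scale in EV-proficient (SE 0.06, edgeR adjusted p 3.02e-07) and by 0.64 in EV-deficient cells (SE 0.06, adjusted p 1.97e-09), while Snhg1 rose in EV-proficient cells and was not called in EV-deficient cells. The difference between each host gene and its neighbour was not itself tested.

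For each of the 7, the tested genes with the most similar pattern over the 12 libraries were found by the root-mean-square (RMS) difference of log2 CPM centred on each gene's mean, among 9884 genes with at least 5 CPM on average. The closest to Snhg12 were Gtpbp2 (0.15) and Zfas1 (0.16), the latter another snoRNA host, beside an RMS of 0.63 for Snhg12 about its own mean. Gas5 was closest to Sft2d2 (0.0825) and Pddc1 (0.10), Snhg1 to Cog7 (0.0523) and R3hdm2 (0.0631), and Pvt1 to Prrc1 (0.0686) and Cln6 (0.0725). Neat1 lay nearest to Idua and Mettl7a1 (0.15 each) and Snhg8 to Nudt18 (0.11) and Pex6 (0.12). Malat1 had no close counterpart, its nearest being Sh2d4b at 0.27 and Zfp791 at 0.28 with an RMS of 0.59 about its own mean. Among the 7 themselves, the smallest distances were those of Pvt1 with Snhg1 (0.15, where Snhg1 itself had an RMS of only 0.17 about its mean) and Gas5 with Snhg12 (0.18, where Gas5 had 0.50), and the most distant was Malat1 with Snhg12 (0.77). All of these distances share the same libraries and the same treatment contrast.

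Other noncoding snoRNA host genes did not all move like the 4. Of 17 on the list, 10 were tested, and averaged over the EV labels paclitaxel was followed by a rise of 4, a fall of 3 and no call for 3, with a median log2 fold change of 0.12. These shares are near those over all tested genes, 37.1% higher and 31.3% lower. With upper-quartile scaling 5 were higher and 2 lower, with a median of 0.246. Zfas1 rose from 63.1 ± 2.93 to 157 ± 25.1 CPM in EV-proficient (1.31 ± 0.13 SE in log2, edgeR adjusted p 1.57e-08) and from 70.5 ± 2.74 to 92.1 ± 23.8 CPM in EV-deficient cells (SD, n = 3; 0.38 ± 0.13 SE in log2, edgeR adjusted p 0.0118), where the groups overlapped. Snhg15 fell from 40.1 ± 2.73 to 20.6 ± 1.74 CPM and from 47.0 ± 1.99 to 19.4 ± 2.88 CPM, and Snhg17 fell too (averaged log2 change -0.67 ± 0.05 SE, edgeR adjusted p 3.68e-10). Snhg5 was at 54.4 ± 3.8 and 52.9 ± 4.40 CPM in EV-proficient cells, a change of -0.04 that was not called, and fell from 58.5 ± 2.19 to 42.2 ± 7.47 CPM in EV-deficient cells. The difference in response between EV labels was called below 0 for 4 genes of this list (3 with upper-quartile scaling; 23.8% of all genes), among them Zfas1 (-0.93 ± 0.18 SE, edgeR adjusted p 0.000247) and Snhg6 (-0.52 ± 0.15 SE), and above 0 for 1 (16.9% of all genes), Snhg20 (0.63 ± 0.20 SE).

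Protein-coding genes that also carry snoRNAs in their introns mostly fell: 12 of 13 were lower and 1 was higher over both labels, with a median of -0.30, where 31.3% of all tested genes were lower and 37.1% higher. The largest declines were in Nop56 (-1.23 ± 0.05 SE, edgeR adjusted p 3.5e-15), Ncl, which encodes nucleolin, (-1.16 ± 0.04 SE) and Eif4a1, a translation initiation helicase (-1.04 ± 0.04 SE). With upper-quartile scaling 8 were lower and 1 higher. In EV-proficient cells alone 5 were lower, 4 higher and 4 not called, near the 27.1% lower and 31.1% higher of all genes. In EV-deficient cells 12 were lower and 1 higher, where 30.5% and 32.4% of all genes were. The test of the difference in response was called below 0 for 12 of the 13 (23.8% of all genes), Rpl3 (-0.84 ± 0.12 SE, edgeR adjusted p 1.07e-05) and Eef2 (-0.82 ± 0.10 SE) most of all.

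The RNAs that encode the proteins assembling on snoRNAs fell. All 13 listed snoRNP and assembly genes, Nop56 again among them, were lower under paclitaxel averaged over the labels, with a median log2 fold change of -1.08 beside 0.07 for all tested genes, of which 31.3% were called lower. Fbl, fibrillarin, the methyltransferase of box C/D snoRNPs, fell from 202 ± 10.4 to 108 ± 6.32 CPM in EV-proficient (-0.90 ± 0.06 SE in log2, edgeR adjusted p 1.06e-10) and from 224 ± 4.27 to 87.1 ± 4.81 CPM in EV-deficient cells (-1.36 ± 0.06 SE, adjusted p 1.41e-13; SD, n = 3). Nolc1, a snoRNP chaperone, fell furthest (averaged -1.59 ± 0.06 SE, edgeR adjusted p 1.13e-15). The same 13 of 13 were lower with both other scalings and without EV-proficient paclitaxel replicate 3.

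Factors of NMD, the pathway that degrades many spliced host RNAs, were lower for 12 of 14 genes and not called for 2 (median -0.39) over both labels, where 31.3% of all tested genes were lower. The central helicase Upf1 went from 241 ± 6.44 to 158 ± 6.61 CPM in EV-proficient (-0.61 ± 0.06 SE in log2, edgeR adjusted p 3.06e-08) and from 249 ± 2.22 to 143 ± 11.7 CPM in EV-deficient cells (-0.80 ± 0.06 SE, adjusted p 3.28e-10). Smg5 fell most (averaged -1.17 ± 0.06 SE, edgeR adjusted p 8.59e-14). Regulators of TOP messages were lower for 8 of 10 and not called for 2 (median -0.46), led by Larp1, which binds TOP tracts (averaged -0.77 ± 0.04 SE, edgeR adjusted p 2.51e-13). Within single labels some rose: 2 of the 10 TOP regulators in EV-proficient cells (31.1% of all genes), Eif4ebp1 (0.29 ± 0.08 SE, edgeR adjusted p 0.00309) and Rptor (0.17 ± 0.06 SE, adjusted p 0.0221), and 1 NMD gene in EV-deficient cells (32.4% of all genes), Smg1 (0.30 ± 0.09 SE, adjusted p 0.00675). Without EV-proficient paclitaxel replicate 3, 0 of the TOP regulators were called higher in EV-proficient cells. These genes and the 2 of the next list were chosen after their values were seen. With upper-quartile scaling 10 NMD genes were lower and 1 higher, and 8 TOP regulators were lower and 2 higher.

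Messages of the protein partners of Neat1 and Malat1 were mostly lower. Of 13 paraspeckle genes 11 were lower and 2 not called over both labels (median -0.51), against 31.3% lower over all genes. In EV-proficient cells, where 27.1% of all genes were lower and 31.1% higher, 9 were lower and 2 higher, Matr3 (0.30 ± 0.08 SE, edgeR adjusted p 0.00376) and Nudt21 (0.14 ± 0.06 SE, adjusted p 0.049). With median-of-ratios scaling, and without EV-proficient paclitaxel replicate 3, 1 was called higher there. Nono fell by 0.34 in EV-proficient (SE 0.05, edgeR adjusted p 1.13e-05) and by 0.72 in EV-deficient cells (SE 0.05, adjusted p 1.78e-10), and Sfpq by 0.57 and 0.79 (SE 0.06 each) on the log2 scale. Pspc1 fell most (averaged -0.96 ± 0.05 SE, edgeR adjusted p 6.05e-13). Of 12 nuclear speckle genes 11 were lower and 1 was not called (median -0.68), with U2af2, a splicing factor that binds the polypyrimidine tract of introns, at -1.18 ± 0.05 SE (edgeR adjusted p 2.26e-14).

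**Figure D4:**
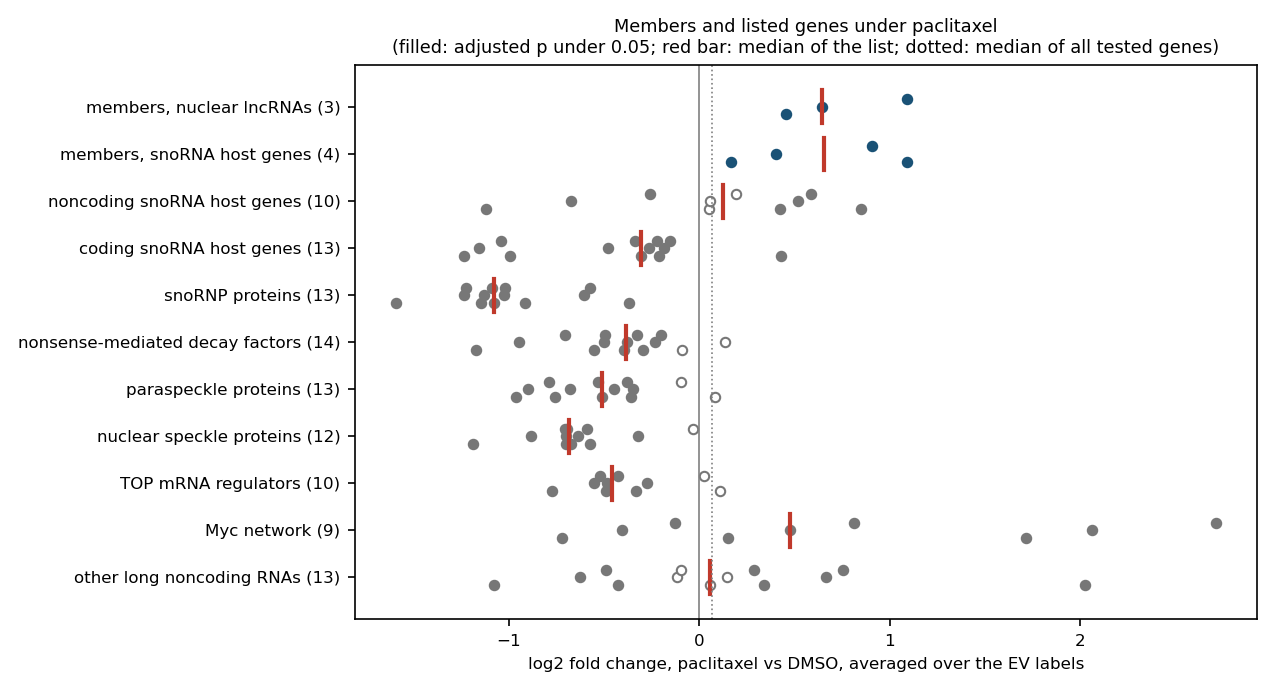
Log2 fold change with paclitaxel, averaged over the EV labels, of the 7 genes (blue) and of the listed genes of each pathway (grey; number tested in brackets); filled points had an adjusted p under 0.05, red bars are medians and the dotted line is the median of all tested genes. All 7 genes lie to the right of 0, while the 13 snoRNP genes lie to the left.

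In the network of Myc, whose partners compete for the same DNA sites, 6 of 9 tested genes were higher and 3 lower (median 0.48). The rises were led by the Myc antagonists Mxd4 (averaged 2.71 ± 0.09 SE, edgeR adjusted p 8.2e-16), Mxi1 (2.06 ± 0.08 SE) and Mxd1 (1.72 ± 0.09 SE). Mxd1 went from 16.2 ± 0.828 to 112 ± 4.82 CPM in EV-proficient and from 31.6 ± 1.29 to 49.5 ± 13.0 CPM in EV-deficient cells (SD, n = 3), and its response differed between the labels by -2.15 ± 0.17 SE (edgeR adjusted p 1.91e-09). Of 13 tested lncRNAs outside the 7, 5 were higher, 4 lower and 4 not called (median 0.06), near the 37.1% higher, 31.3% lower and median of 0.07 over all tested genes. Firre rose by 0.76 ± 0.08 SE (edgeR adjusted p 4.65e-08) and Mir22hg by 0.67 ± 0.12 SE, and Kcnq1ot1 fell by 1.08 (SE 0.19, edgeR adjusted p 3.3e-05).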

How the data were processed

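Polyadenylated RNA of 12 cell culture libraries was sequenced from stranded libraries, per the labels' protocols. STAR 2.5.0a and GRCm38 are named in the submitters' processing notes. The counting program, the annotation release and the use of strand are not given in the sources used here. The authors deposited raw whole read counts per gene. Rows for gfp (0 counts throughout) and dngfr were left out of library sizes and tests. The tests used edgeR 4.0.16 under R 4.3.3: filterByExpr (minimum count 10), scaling by trimmed mean of M values (factors 0.89 to 1.15), 1 quasi-likelihood model with a mean for each of 4 groups, and Benjamini-Hochberg adjustment over all 18108 tested genes (threshold 0.05, common dispersion 0.00956). Standard errors are the log2 fold change over the square root of F. CPM use scaled library sizes. For principal components and likeness, CPM were taken to log2 after adding a prior count of 2.

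Replicates were compared before averaging: chi-square over its degrees of freedom was 4.20 to 27.8, so no pair agreed within sampling noise. Other settings tried were DESeq2 1.42.0, limma 3.58.1 (voom), scaling by median of ratios or by upper quartile, a filter of 1 CPM in 3 libraries or none at all, a block for the replicate number, fits of the compared groups alone, and leaving out each library. For the pathway lists, both scalings and leaving out EV-proficient paclitaxel replicate 3 were added after seeing the data.

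The 7 genes and all lists were chosen with earlier results of these data known. All 7 are named throughout. Of each list the 3 called genes of largest change with at least 5 CPM could be named, plus Myc, Nono, Sfpq, Fbl, Upf1 and Snhg5. GENCODE M21 held 55154 of the 55421 genes of the table. Promoter sequences are from RefSeq.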

Additional observations from a re-analysis of the deposited data

Results flagged for a closer look

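The paclitaxel response differed between the EV labels, by the interaction test of edgeR, for 5 of the 7 genes. The response in EV-deficient minus that in EV-proficient cells was 0.95 for Malat1, -0.38 for Gas5, -0.35 for Snhg1, -1.0 for Snhg8 and -0.89 for Snhg12 on the log2 scale, with adjusted p between 6.05e-05 (Snhg8) and 0.0129 (Gas5). Of all tested genes, 40.7% were called in this comparison, and its directions hold for the libraries as labelled.

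A signal outside the gene table was the dngfr row, at a mean of 10.9 CPM in EV-deficient paclitaxel libraries, where the EV-deficient DMSO libraries held 2.15 CPM. In EV-proficient libraries it was lower with paclitaxel than with DMSO.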

How the results depend on the processing

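The averaged paclitaxel effect called all 7 genes in each of its 19 alternatives. Over 322 values of single genes under other settings, 302 kept direction and side of the threshold, and over 504 with 1 library left out 479 did. In 19 the sign turned, in none of them from a value called as reported, and 1 of the 19 was called after turning (Snhg1 with paclitaxel in EV-deficient cells under upper-quartile scaling, edgeR adjusted p 0.0354). With 1 library left out, Malat1 ranged from -0.076 (without EV-proficient DMSO replicate 2) to 0.35 for paclitaxel in EV-proficient cells and from -0.073 (without the same library) to 0.36 for the EV label under DMSO. Snhg1 with paclitaxel in EV-deficient cells ranged from -0.081 to 0.071, being above 0 without EV-deficient paclitaxel replicate 3 or DMSO replicate 2 (0.00758), and was 0.010 with median-of-ratios scaling, 0.010 with DESeq2, 0.18 with upper-quartile scaling, 0.055 with the filter of 1 CPM and 0.00399 with only those groups. For the EV label under DMSO it ranged from -0.056 to 0.00779, being above 0 without EV-deficient DMSO replicate 1 or 3 or EV-proficient DMSO replicate 3, and without the low-count filter it was 0.026 and Pvt1 0.000963. Upper-quartile scaling gave 0.088 for Snhg8 with paclitaxel in EV-deficient cells. The Neat1 interaction was 0.047 with that scaling and ranged from -0.20 to 0.055 with 1 library left out, being above 0 without EV-proficient paclitaxel replicate 2 or EV-deficient paclitaxel replicate 1 or 3. The causes were not tested.

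The number of the 7 genes called for the EV label under DMSO went from 2 to 1 with DESeq2 and to between 0 and 2 with 1 library left out (0 without EV-proficient DMSO replicate 3, 1 without EV-proficient DMSO replicate 2 or EV-deficient DMSO replicate 2). For the interaction it went from 5 to 3 with upper-quartile scaling. That scaling moved the median of all genes by 0.184 for paclitaxel in EV-deficient cells, 0.123 for the interaction and 0.122 for the averaged effect, and the share of called genes that were higher from 51.5% to 63.4% in the first of these. Under DMSO, 53.9% of called genes were higher, and 64.1% without the low-count filter.

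Replicate numbers were checked for pairing: of 18 same-numbered pairs of libraries 0 had deviations correlated over 0.1 (range -0.0812 to 0.0970). In 9 of the 18 the library of the same number was the best correlated of its group. These values do not settle whether same-numbered libraries were paired. With the replicate number as a block, 10520 genes were called for paclitaxel in EV-proficient cells (10538 without the block) and 7386 for the interaction (7370), and the one change among the 7 genes was that the Pvt1 interaction was called (-0.36, edgeR adjusted p 0.0474). It was also called without the low-count filter (-0.43), by limma-voom (-0.39) and without EV-proficient paclitaxel replicate 3 (-0.39), and was -0.22 (adjusted p 0.221 by edgeR) without EV-deficient paclitaxel replicate 3. The smallest count behind any value of the 7 genes was 401, for Pvt1.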
